A study of Rattus norvegicus with 6 samples.

Results

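The genes described here encode the hypoxia-inducible factors (HIFs), the enzymes that sense oxygen for them, the ubiquitin ligase subunit Vhl and the HIF-induced peptide adrenomedullin. They were the 10 genes Hif1a, Epas1, Hif3a, Arnt, Egln1, Egln2, Egln3, Vhl, Hif1an and Adm, each taken by its name from a table of 32623 rat genes. RNA sequencing had been performed on myocardial tissue of wild-type rats, with 3 samples after a sham operation and 3 after 30 min of ischemia. Ischemia was produced in anesthetized, ventilated male rats by tying the left anterior descending coronary artery, and an elevated ST segment was used to check the occlusion. Sham samples carried the same 30 min label, and no ligation is described for them. The strain and age of the rats and the part of the heart that was sampled are not given in the sources used here, nor whether each sample was 1 animal, so p-values measure the spread between these samples only. The question was how the oxygen-sensing genes differed between ischemic and sham myocardium.

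HIFs are transcription factors made of an oxygen-regulated alpha subunit and the stable partner Arnt. With oxygen present, the prolyl hydroxylases Egln1, Egln2 and Egln3 modify the alpha subunits, which Vhl then marks for degradation, and the asparaginyl hydroxylase Hif1an blocks their transcriptional activity. When oxygen falls, the alpha subunits accumulate mainly at the protein level, enter the nucleus and bind DNA at hypoxia response elements, whose core is ACGTG or GCGTG. In the heart this pathway is known for its part in the switch to glycolysis, in blood vessel growth and in vascular tone. RNA levels, as measured here, do not report the protein level or the activity of the factors.

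All 10 genes had a promoter in the RefSeq table of build GRCr8, each a window that begins at base -250 from the annotated start and ends shortly after it, and Hif3a had 2, giving 11 promoters. The core ACGTG, searched on both strands, was found in 2 of the 11 (18.2%), against 19.3% of all 33469 promoters. GCGTG was found in 3 of the 11 (27.3%), against 29.7% of all. Among known HIF target genes, chosen as a list for comparison, 24 of 29 matched with 29 promoters, of which 16 (55.2%) held ACGTG and 15 (51.7%) held GCGTG. Pgk1, Bnip3l, Ndrg1, Ca9 and Hmox1 had no match, so the promoter of Hmox1, the target that rose most in ischemia, was not seen. The stretches below are shown because Hif1a and Epas1 are the paralogous alpha subunits whose RNA levels differed in pattern, Egln1 is the only member with both cores, and Ddit4 is a target that rose in ischemia. Capitals mark ACGTG and GCGTG on either strand, and the first capital run of Hif1a is 1 base longer because ACGTG overlaps itself there on opposite strands. They cover bases -250 to -141 from the start for Hif1a (chr6:98359648-98359757, plus strand) and Epas1 (chr6:13624870-13624979, minus strand), -110 to -1 for Egln1 (chr19:69804682-69804791, minus strand) and -160 to -51 for Ddit4 (chr20:28437088-28437197, minus strand).
Hif1a: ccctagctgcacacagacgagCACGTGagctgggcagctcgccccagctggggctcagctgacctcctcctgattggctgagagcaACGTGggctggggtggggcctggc
Epas1: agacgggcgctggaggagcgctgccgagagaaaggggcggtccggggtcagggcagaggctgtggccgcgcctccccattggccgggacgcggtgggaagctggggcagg
Egln1: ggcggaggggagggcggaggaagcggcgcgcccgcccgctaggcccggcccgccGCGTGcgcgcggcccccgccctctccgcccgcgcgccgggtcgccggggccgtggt
Ddit4: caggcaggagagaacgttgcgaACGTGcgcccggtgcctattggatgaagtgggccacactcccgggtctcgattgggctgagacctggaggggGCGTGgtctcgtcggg
Egln1 also held ACGTG just after its start, outside the stretch shown. A match describes these letters only and does not show that a factor binds there.

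Total counts ranged from 68529126 to 79591989 per sample, and the detection floor of 3 counts, which reflects counting error alone, stood at 0.0377 to 0.0438 CPM (counts divided by the library total and rescaled). Myocardium was recognisable in each sample, since all 6 cardiomyocyte markers found in the table were above 0 throughout. Some libraries stood apart. Y-linked genes had 161 counts in sham replicate 1 and 3218 to 8970 counts elsewhere, and all rats are given as male. The 5 atrial marker genes summed to 48340 and 39340 FPKM in sham replicates 1 and 3, against 215.5 in sham replicate 2 and 1279 to 9610 in ischemia. FPKM are fragment counts scaled to gene length and library size. The 10 myeloid marker genes, of neutrophils, monocytes and macrophages, summed to 117.9 to 205.3 FPKM in sham and to 1288, 8523 and 2043 FPKM in ischemia replicates 1 to 3. Their part in the results below was not tested. In whole tissue, fewer cells of a type and less RNA per cell cannot be told apart.

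Hif1a was the member with the largest difference among the 9 that could be tested, and Epas1, Arnt, Egln1, Egln3 and Adm had log2 fold changes within 1 SE of 0. None of the 9 tested members passed an adjusted p of 0.05 with edgeR's quasi-likelihood test, where 5.18% of 13964 tested genes passed as higher and 1.53% as lower in ischemia (6.71% in all). At an unadjusted p under 0.05, 1 member (Hif1a) was called, as higher, against 18.2% of all tested genes called higher, 14.2% called lower and 32.4% in either direction. With DESeq2 1 member, again Hif1a, passed as higher, where 14.8% of all genes did, and 0 passed as lower, where 12.5% did. With limma on log2(FPKM + 0.1) 0 members passed, where 6.09% of all genes passed as higher and 1.88% as lower. The ischemia values of 3 members (Hif1a, Egln2 and Vhl) lay wholly above the sham values, where 23.6% of all tested genes did so, and no member lay wholly below, where 15.0% did. The median log2 fold change of the 9 members was 0.04, against -0.0015 for all tested genes. Hif3a, with a mean FPKM under 0.5, was not tested in that fit.

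**Figure D1:**
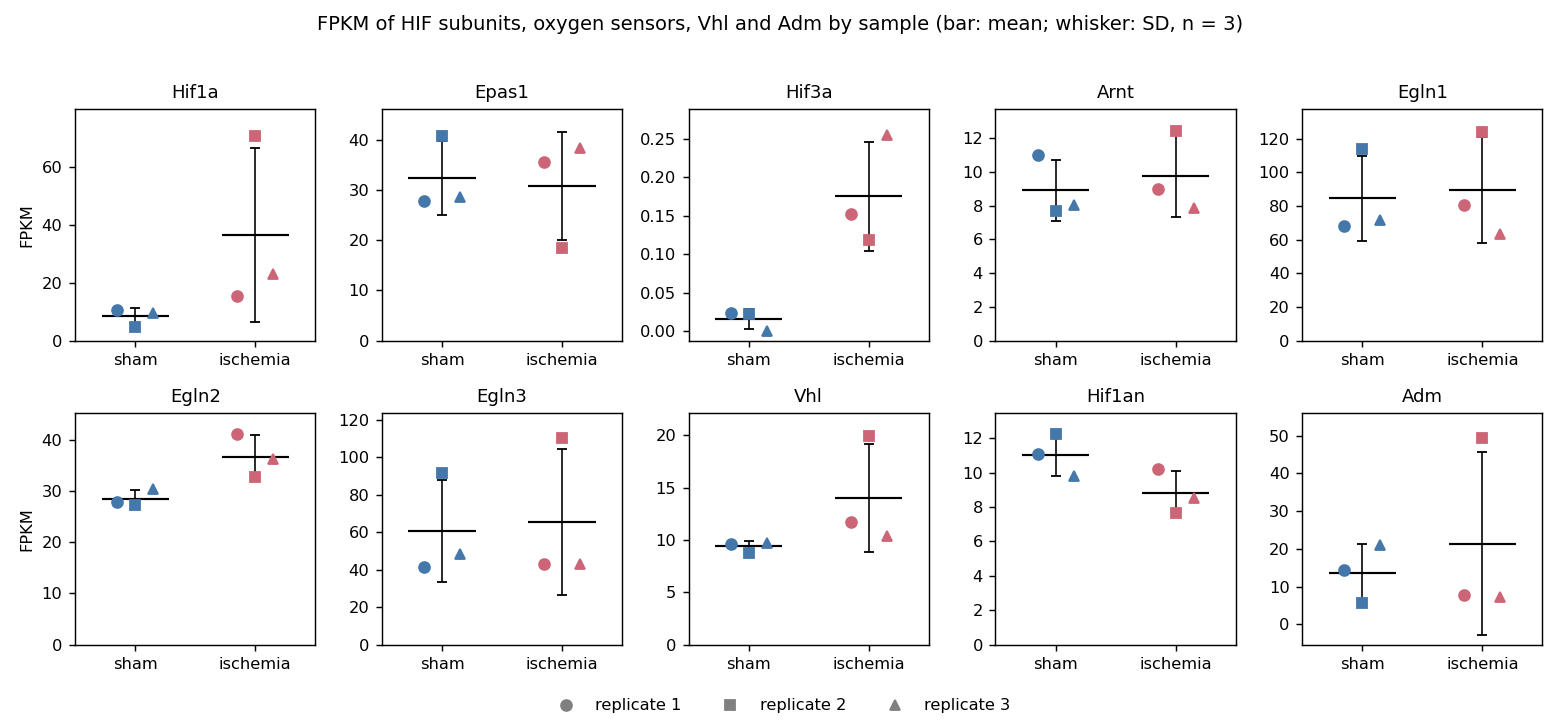
FPKM (linear axis, a separate scale for each gene) of the 10 genes in sham (blue) and ischemia (red) samples, with the replicate given by the symbol, the group mean as a bar and the SD over 3 samples as a whisker, which passes below 0 for Adm. Hif1a, Hif3a, Egln2 and Vhl separate the groups, and ischemia replicate 2 (square) sets the highest value of Hif1a (70.7 FPKM) and Adm (49.3 FPKM).

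Hif1a encodes the broadly expressed alpha subunit that drives the acute response to low oxygen. In the table's coordinates, whose build is not named, the gene (ENSRNOG00000008292) spans 96810907 to 96856052 of chromosome 6, plus strand. Its level was 10.5, 4.83 and 9.63 FPKM in sham replicates 1 to 3 and 15.2, 70.7 and 23.1 FPKM in ischemia replicates 1 to 3. All ischemia values were above all sham values, and ischemia replicate 2 was far above the rest. The means were 8.31 ± 3.04 (SD, n = 3) and 36.4 ± 30.0 (SD, n = 3) FPKM, and counts ran from 1561 to 21136. Its log2 fold change of 2.03 ± 0.57 (SE), a 4.10-fold difference, had an edgeR adjusted p of 0.0756 (unadjusted 0.0105), and the exact permutation test of FPKM gave p 0.1, the smallest that 3 samples against 3 allow. The difference therefore held its direction in every sample but did not pass the threshold over all genes. Without ischemia replicate 2 the log2 fold change was 1.22 (edgeR adjusted p 0.0913). Without ischemia replicate 1 it was 2.38 and passed (edgeR adjusted p 0.0297), and DESeq2 gave 2.01 with an adjusted p of 0.00338. Over 17 alternatives the log2 fold change stayed between 1.22 and 2.54, with adjusted p-values from 0.00338 to 0.389 and 2 that passed.

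The summed myeloid markers, of which Lyz2 was the most abundant, shared the order of Hif1a over the ischemia samples but not over the sham samples. In sham replicates 1 to 3 the sum was 155.3, 117.9 and 205.3 FPKM. There both were lowest in replicate 2, but the sum was highest in replicate 3 and Hif1a in replicate 1. Both Hif1a and the sum were highest in ischemia replicate 2, next in ischemia replicate 3 and then in ischemia replicate 1. Single markers did not all share the order of ischemia replicates 1 and 3. All 10 myeloid genes had a positive log2 fold change (median 4.06), 8 passed the edgeR adjusted threshold as higher and 7 that of DESeq2, where 5.18% and 14.8% of all tested genes did, and none was at 0 in any sample. Cardiomyocyte markers summed to 16180, 20400 and 14420 FPKM in sham and to 14030, 5557 and 10850 FPKM in ischemia, lowest in the replicate where Hif1a was highest. The 7 endothelial markers found had a median log2 fold change of 0.08 and summed to 204.7 to 230.6 FPKM in sham and 247.5 to 267.8 FPKM in ischemia, with 0 passing in edgeR or DESeq2 and 2 at an unadjusted edgeR p under 0.05. Fibroblast markers (5 found, median -0.95), mural cell markers (4, median -1.52), atrial markers (5, median -3.66) and cardiomyocyte markers (6, median -0.79) also had 0 genes past the threshold in edgeR, with 3, 1, 1 and 2 genes at an unadjusted p under 0.05. DESeq2 called 3 fibroblast (1 higher, 2 lower), 1 mural, 0 atrial and 2 cardiomyocyte genes, the mural and cardiomyocyte genes as lower. Over all tested genes 32.4% had such an unadjusted p, and DESeq2 called 14.8% higher and 12.5% lower. The part of cell composition in the Hif1a values was not tested.

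**Figure D2:**
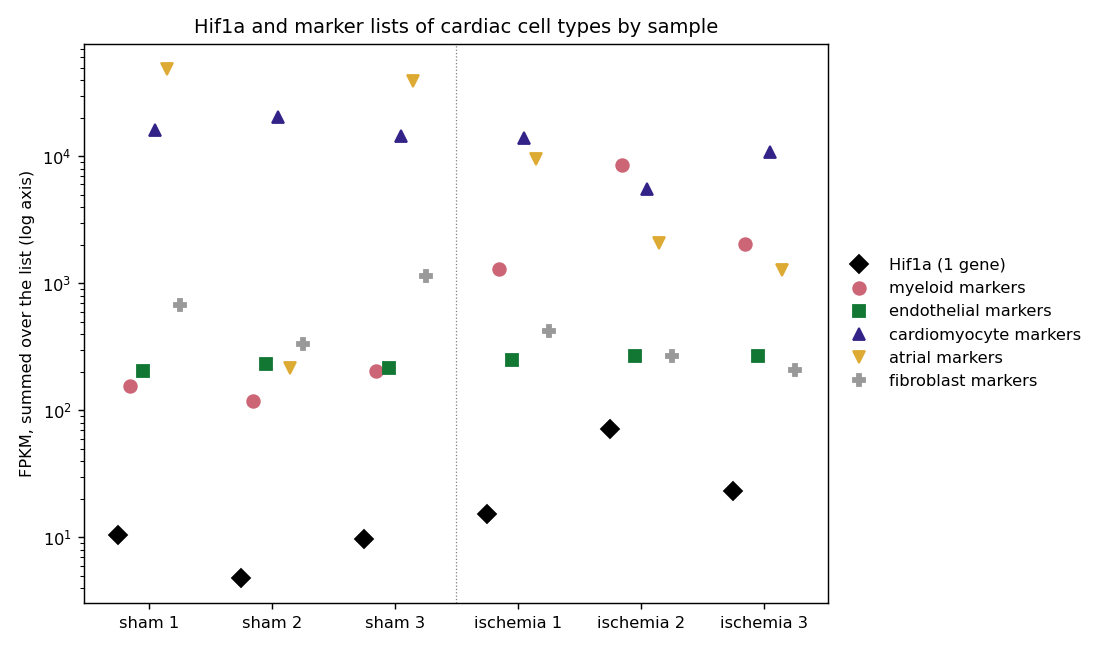
FPKM of Hif1a and FPKM summed over marker lists of 5 cardiac cell types (log axis) in each of the 6 samples, with sham to the left of the dotted line. Myeloid markers lie at or below 205.3 in sham and reach 8523 in ischemia replicate 2, where Hif1a is also highest and cardiomyocyte markers are lowest (5557).

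Epas1 encodes HIF-2 alpha, the alpha subunit best known from endothelial cells. It showed 27.8, 40.8 and 28.5 FPKM in sham replicates 1 to 3 and 35.6, 18.5 and 38.3 FPKM in ischemia replicates 1 to 3. The groups overlapped, and ischemia replicate 2, which had the most Hif1a, had the least Epas1. The log2 fold change was -0.17 ± 0.40 (SE; edgeR adjusted p 0.785; exact permutation p 0.9), and its sign changed to 0.13 without ischemia replicate 2 and to 0.17 without sham replicate 2. Compared within each sample, Epas1 exceeded Hif1a 2.65-, 8.44- and 2.96-fold in sham and 2.34-fold and 1.66-fold in ischemia replicates 1 and 3, and was at 0.262 of Hif1a in ischemia replicate 2. On the log2 scale the sham ratio averaged 2.02 ± 0.92 (SD, n = 3) and the ischemia ratio 0.0083 ± 1.70 (SD, n = 3), a difference of -2.01 with no overlap between the groups and an exact permutation p of 0.1, the smallest possible. Without ischemia replicate 2 that difference was -1.04. The ratio in ischemia replicate 1 (log2 1.23) lay close to that of sham replicate 1 (1.41).

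Hif3a encodes the alpha subunit with weak transcriptional activity, some forms of which act against the other HIFs. It was close to the limit of detection, with 4, 4 and 0 counts in sham replicates 1 to 3 and 27, 19 and 38 counts in ischemia replicates 1 to 3. The FPKM was 0.0239 and 0.0225 in sham replicates 1 and 2 and 0.153, 0.119 and 0.255 in ischemia, and sham replicate 3 was listed at the value used for no reads. The groups did not overlap, but all values lay far below those of the other members. Fitted together with all genes and no filter, Hif3a had a log2 fold change of 3.29 ± 1.31 (SE), an unadjusted p of 0.0413 and an edgeR adjusted p of 0.188 over 20541 genes.

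Arnt, the constitutive partner shared by all alpha subunits, had 11, 7.66 and 8.07 FPKM in sham replicates 1 to 3 and 9.0, 12.5 and 7.84 FPKM in ischemia replicates 1 to 3. The groups overlapped, with a log2 fold change of 0.04 ± 0.22 (SE; edgeR adjusted p 0.919; exact permutation p 0.6). With single samples left out it ranged from -0.11 to 0.15, so no direction was established.

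Egln1, the main prolyl hydroxylase that sets HIF-alpha stability under normal oxygen, was the most abundant member by FPKM in both groups. This order rests on the scaling to gene length, since Egln3 had more reads than Egln1 in all 6 samples (8584 to 23294 against 3018 to 6233 counts), and the gene lengths used for FPKM are not given in the sources used here. Egln1 had 68, 113.8 and 71.5 FPKM in sham replicates 1 to 3 and 80.6, 124.2 and 63.5 FPKM in ischemia replicates 1 to 3. Egln3, a prolyl hydroxylase that is itself a HIF target, had 41.4, 91.7 and 48.3 FPKM in sham and 43.1, 110.3 and 42.9 FPKM in ischemia. In each group replicate 2 was the highest sample for both genes, so the spread within groups exceeded the difference between them. The log2 fold changes were -0.07 ± 0.36 (SE; edgeR adjusted p 0.904) for Egln1 and -0.07 ± 0.52 (SE; edgeR adjusted p 0.934) for Egln3, with exact permutation p-values of 0.7 and 0.8. Both turned positive with total-count scaling (0.09 and 0.12) and without sham replicate 2 (0.35 and 0.52). With sham replicate 2 as the only control, the sham sample with few atrial transcripts, they were -0.69 and -0.84. That fit takes its spread from the ischemia samples alone, and 0 of its 13662 genes passed.

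Egln2, a prolyl hydroxylase found largely in the nucleus, had 27.8, 27.4 and 30.4 FPKM in sham replicates 1 to 3 and 41.2, 32.7 and 36.3 FPKM in ischemia replicates 1 to 3. Every ischemia value was above every sham value, with means of 28.5 ± 1.65 and 36.7 ± 4.30 FPKM (SD, n = 3). After scaling by trimmed means the log2 fold change was smaller, 0.28 ± 0.19 (SE), and did not pass (edgeR adjusted p 0.323; exact permutation p of FPKM 0.1, the smallest possible). It stayed positive, from 0.11 to 0.41, over 17 alternatives, none of which passed. Egln2 overlaps the oppositely transcribed gene Cyp2t1 by 103 bases in the table's coordinates. Cyp2t1 had 271 to 567 counts and Egln2 4209 to 6753, and how reads in the overlap were assigned is not given in the sources used here.

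The mix of prolyl hydroxylase transcripts was also compared within each sample. The shares are of FPKM and so rest on the scaling to gene length. In counts Egln1 was below Egln3 in every sample. It was also below Egln2 in replicates 1 and 3 of both groups, and above it in replicate 2. In sham replicate 1, for example, there were 3467 counts for Egln1, 4209 for Egln2 and 8895 for Egln3. Of the summed FPKM of the 3 paralogs, Egln1 made up 49.6%, 48.9% and 47.6% in the sham samples and 48.9%, 46.5% and 44.5% in the ischemia samples, replicates 1 to 3 each. Egln3 made up 30.2%, 39.4% and 32.2% in the sham samples and 26.1%, 41.3% and 30.1% in the ischemia samples. Egln2 held the rest, 20.3%, 11.8% and 20.2% in the sham samples and 25%, 12.2% and 25.4% in the ischemia samples. The shares of each paralog overlapped between the groups, with differences of -2.05, -1.43 and 3.47 percentage points for Egln1, Egln3 and Egln2 and exact permutation p-values of 0.2, 0.7 and 0.5. With a sample left out, the difference ranged from -3.17 to -0.98 for Egln1 and from 0.64 to 7.81 for Egln2, and that of Egln3 changed sign (-5.82 to 1.76). In both groups replicate 2 had the largest share of Egln3 and the smallest of Egln2. The log2 ratio of Egln3 to Egln1 averaged -0.53 ± 0.20 (SD, n = 3) in the sham samples and -0.55 ± 0.37 (SD, n = 3) in the ischemia samples (exact permutation p 0.9).

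**Figure D3:**
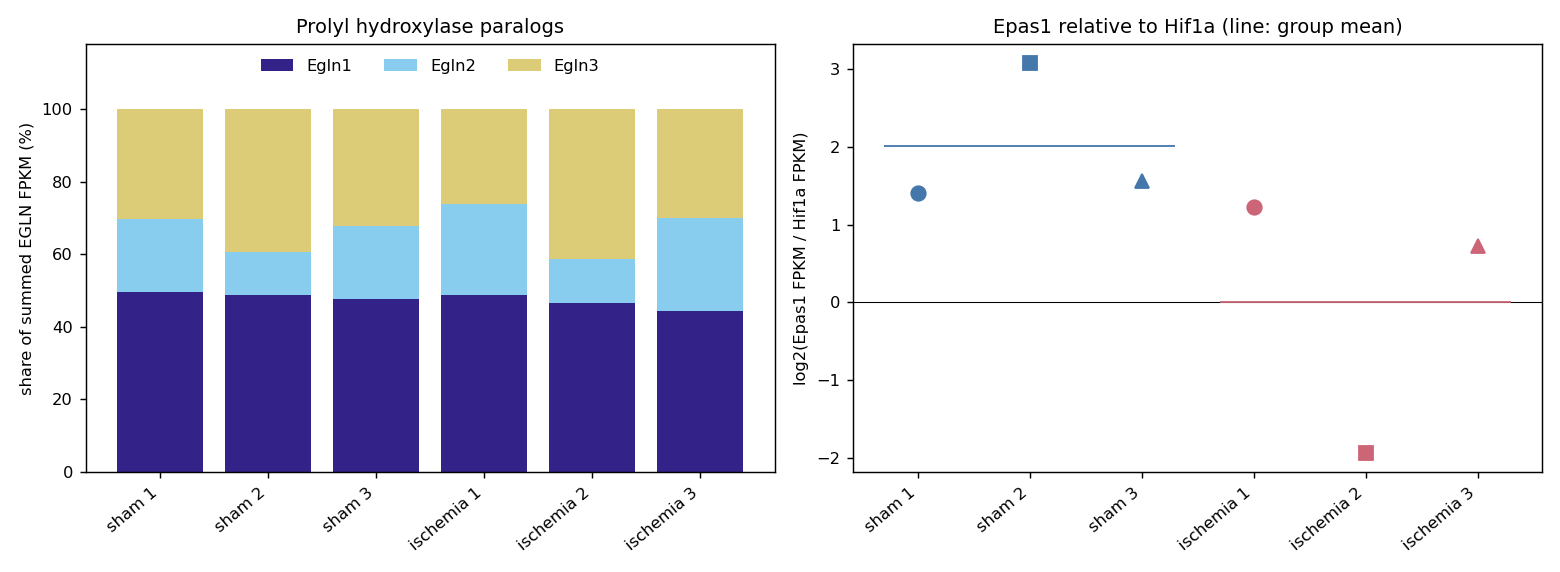
Left, share of each EGLN paralog in their summed FPKM (%) for each sample. Right, log2 ratio of Epas1 to Hif1a FPKM for each sample with the group means as lines. Egln1 holds between 44.5% and 49.6% of the summed FPKM in all samples. That share rests on the scaling to gene length, since Egln1 had fewer counts than Egln3 in every sample. The Epas1 to Hif1a ratio is below 0 in ischemia replicate 2 alone (-1.93).

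Vhl, the substrate-binding subunit of the ligase that marks hydroxylated alpha subunits, had 9.61, 8.78 and 9.74 FPKM in sham replicates 1 to 3 and 11.7, 19.9 and 10.4 FPKM in ischemia replicates 1 to 3. The groups did not overlap, but ischemia replicate 3 lay close to the sham samples and ischemia replicate 2 well above them. The log2 fold change was 0.47 ± 0.24 (SE; edgeR adjusted p 0.224; exact permutation p 0.1, the smallest possible), and 0.20 without ischemia replicate 2. Hif1an, the asparaginyl hydroxylase, had 11.1, 12.2 and 9.79 FPKM in sham and 10.2, 7.65 and 8.51 FPKM in ischemia. Ischemia replicate 1 overlapped sham, and the log2 fold change was -0.43 ± 0.26 (SE; edgeR adjusted p 0.286; exact permutation p 0.2). Hif1an was negative, from -0.78 to -0.22, and Vhl positive, from 0.20 to 0.61, over 17 alternatives, and neither passed in any of them.

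Adm, which encodes the vasodilator peptide adrenomedullin and is a classic HIF target, had 14.3, 5.58 and 20.9 FPKM in sham replicates 1 to 3 and 7.70, 49.3 and 7.29 FPKM in ischemia replicates 1 to 3. Ischemia replicate 2 was the highest of all samples, while the other two ischemia samples lay within the sham range. The log2 fold change was 0.56 ± 0.80 (SE; edgeR adjusted p 0.646; exact permutation p 0.8). Without ischemia replicate 2 it was -0.84 (edgeR adjusted p 0.309), and no other sample changed its sign when left out. The sham samples mattered too. With sham replicate 2 as the only control, the sham sample with few atrial transcripts, the log2 fold change of Adm was 1.55. Adm was higher in sham replicates 1 and 3, which had the most atrial transcripts, and their part in it was not tested.

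**Figure D4:**
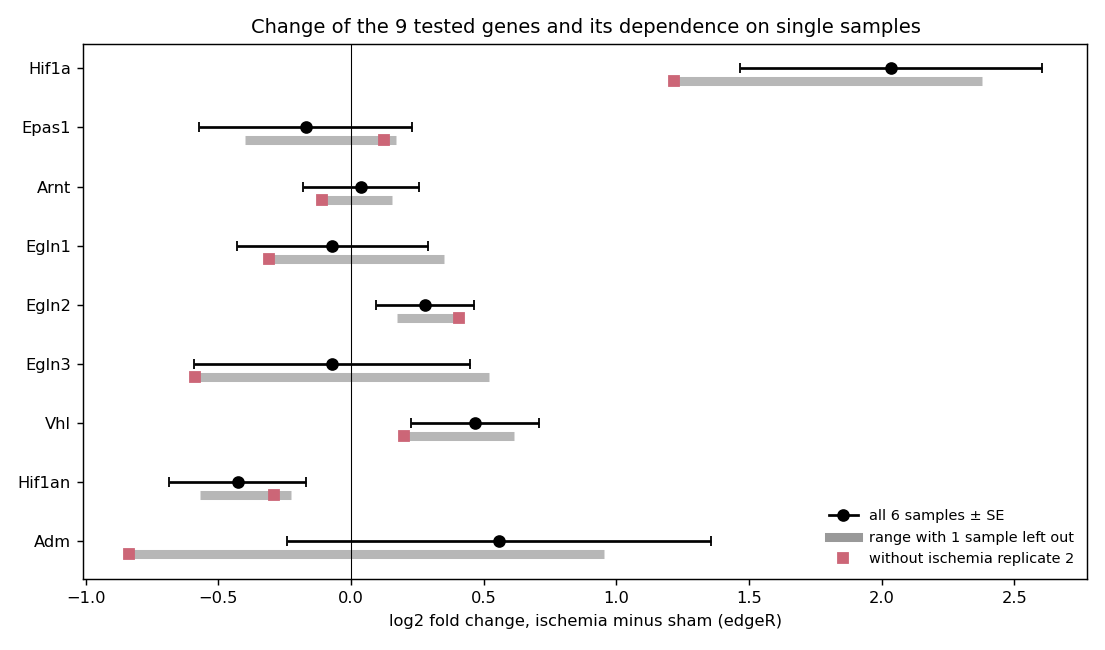
Log2 fold change of ischemia against sham (edgeR) for the 9 tested genes with its SE (black), the range when each of the 6 samples was left out (grey) and the value without ischemia replicate 2 (red). Only Hif1a has values beyond 1 apart from the SE of Adm, from 1.22 to 2.38 over the fits with a sample left out, and Adm moves from 0.56 to -0.84 without ischemia replicate 2.

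Genes of the adrenomedullin system were examined as a list of 9, which held receptor, accessory and processing genes and the related peptide gene Adm2. Of the 8 tested, 2 rose, 0 fell and 6 did not pass the edgeR adjusted threshold, with a median log2 fold change of 0.58, where 5.18% of all tested genes rose and 1.53% fell. At an unadjusted edgeR p under 0.05, 2 were higher and 2 lower, against 18.2% and 14.2% of all genes, and DESeq2 called 2 higher and 2 lower, against 14.8% and 12.5%. Ramp3, an accessory protein that turns the calcitonin receptor-like receptor into an adrenomedullin receptor, had 1.22, 1.30 and 2.02 FPKM in sham replicates 1 to 3 and 3.78, 8.03 and 5.82 FPKM in ischemia replicates 1 to 3. The rise of Ramp3 was 1.86 ± 0.37 in log2 units (SE; edgeR adjusted p 0.0440). Gpr182, an endothelial receptor once proposed to bind adrenomedullin, had 7.70, 5.47 and 6.87 FPKM in sham and 12.8, 16.4 and 11.1 FPKM in ischemia, a rise of 0.92 ± 0.19 (SE; edgeR adjusted p 0.0445). Both genes separated the groups completely, and both calls were lost when sham replicate 1, 2 or 3 or ischemia replicate 2 or 3 was left out (edgeR adjusted p from 0.0682 to 0.164). In those fits 0 of all tested genes passed, except without ischemia replicate 2, where 445 passed as higher and 104 as lower. Ramp3 also did not pass with total-count scaling (edgeR adjusted p 0.0516) or without a filter (0.0517), nor did Gpr182 (0.0650 and 0.0562), which was lost in limma at both pseudocounts too (0.0527 and 0.0567). With the block neither passed (0.104 and 0.134), nor with sham replicate 2 as the only control (0.389 each). Over all 6 fits with a sample left out, the log2 fold changes lay between 1.65 and 2.08 for Ramp3 and between 0.82 and 1.01 for Gpr182. Ramp1, the related accessory protein, had 11.6, 5.12 and 23.0 FPKM in sham and 5.67, 2.88 and 2.96 FPKM in ischemia, with a log2 fold change of -1.80 ± 0.55 (SE; unadjusted p 0.0156, edgeR adjusted p 0.0889), and was named after its values were seen. Its groups overlapped (exact permutation p 0.2). Ramp1 was highest in sham replicates 1 and 3, the sham samples with the most atrial transcripts, whose part in it was not tested. Among the others, Mme, a peptidase that can degrade adrenomedullin, had the highest value (0.87, edgeR adjusted p 0.515), with 0.161, 0.0944 and 1.11 FPKM in sham and 0.538, 0.985 and 0.984 FPKM in ischemia. The Mme value was 2.56 without sham replicate 3, 0.41 without sham replicate 2 and 0.46 without sham replicate 1. Pam, which amidates peptide hormones and is abundant in atrial muscle, had the lowest (-2.05, edgeR adjusted p 0.149), which passed in DESeq2 (adjusted p 0.0285) and was -0.25 with sham replicate 2 as the only control. Pam showed 1467, 199.9 and 898.7 FPKM in sham replicates 1 to 3 and 396.9, 87.6 and 134.5 FPKM in ischemia, and was thus highest in the sham samples with the most atrial transcripts, whose part in it was not tested.

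Known HIF targets outside the members were read as a list of 29 genes, of which 27 were tested. Of these, 2 rose, 0 fell and 25 did not pass the edgeR adjusted threshold. Over all tested genes the shares were 5.18% higher and 1.53% lower. At an unadjusted edgeR p under 0.05, 8 targets were higher and 1 lower, against 18.2% and 14.2% of all genes, and DESeq2 called 6 higher and 1 lower, against 14.8% and 12.5%. Their median log2 fold change was 0.52 against -0.0015 for all tested genes, and 22 of 27 were above 0, where 49.9% of all tested genes were. Ischemia values lay wholly above sham for 8 of the 27, where 23.6% of all tested genes did, and wholly below for 1, where 15.0% did. Those that rose were Hmox1, which encodes a heme-degrading enzyme, and Ddit4, which encodes the mTOR inhibitor REDD1.

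Hmox1 had 5.27, 5.27 and 7.93 FPKM in sham replicates 1 to 3 and 74.1, 323.6 and 77.7 FPKM in ischemia replicates 1 to 3, with a log2 fold change of 4.55 ± 0.66 (SE; edgeR adjusted p 0.0292). Ddit4 had 15.2, 13.0 and 16.4 FPKM in sham and 44.9, 59.1 and 29.5 FPKM in ischemia, with 1.48 ± 0.24 (SE; edgeR adjusted p 0.0327). Over 17 alternatives the log2 fold change was 3.60 to 4.87 for Hmox1, lowest without ischemia replicate 2, and 1.29 to 1.68 for Ddit4, and both passed in 11 of them. Both calls were lost without sham replicate 1, 2 or 3 or ischemia replicate 3 (edgeR adjusted p up to 0.157), with the replicate number as a block (0.0943 and 0.103) and with sham replicate 2 as the only control (0.389 each). In each of these 6 fits 0 of all tested genes passed, while 1707 to 3822 had an unadjusted p under 0.05, so the loss is not particular to the targets. Without ischemia replicate 1, 6 targets passed as higher, where 1495 of all 14004 genes did. Hmox1 is also expressed by macrophages. The myeloid markers summed to at most 205.3 FPKM in sham and at least 1288 FPKM in ischemia, and their part was not tested.

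Slc16a3, a lactate exporter, had the highest log2 fold change of the targets that did not pass (5.50 ± 1.27, edgeR adjusted p 0.0517), with 0.774, 0.846 and 1.83 FPKM in sham and 7.49, 151.1 and 14.6 FPKM in ischemia. Without ischemia replicate 2 it was 3.26 and passed (edgeR adjusted p 0.0375), and it passed in 5 of 17 alternatives in all, with adjusted p-values from 5.82e-07 to 0.391. The glucose transporter Slc2a1 had 4.15, 5.6 and 5.46 FPKM in sham and 12.4, 196.6 and 29.9 FPKM in ischemia (3.79 ± 1.01, edgeR adjusted p 0.0687). The glycolytic activator Pfkfb3 had 1.75, 2.75 and 2.27 FPKM in sham and 5.80, 50.3 and 14.8 FPKM in ischemia (3.22 ± 0.77, edgeR adjusted p 0.0561). Both lay wholly above sham without passing, and ischemia replicate 2 was by far the highest sample for both. Several textbook targets had small values. Vegfa, the main angiogenic ligand, had a log2 fold change of 0.30 ± 0.33 (SE; edgeR adjusted p 0.546), Bnip3, a mitophagy receptor, 0.25 ± 0.21 (0.422), and Pdk1, a kinase that restrains pyruvate entry into mitochondria, -0.09 ± 0.50 (0.910). Tfrc, the transferrin receptor, had the lowest value, -0.97 ± 0.32 (SE; edgeR adjusted p 0.105), with 12.2, 14.5 and 13.7 FPKM in sham and 5.29, 11.7 and 5.53 FPKM in ischemia, wholly below sham. It passed as lower in DESeq2 (adjusted p 0.0299) and without ischemia replicate 2 (-1.36, edgeR adjusted p 0.0427), 2 of 17 alternatives. Slc2a1, Pfkfb3, Vegfa, Bnip3 and Pdk1 were named after their values were seen.

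Partners and regulators of the HIF pathway were covered by a list of 15 genes, of which 13 were tested. In edgeR 0 rose and 0 fell at the adjusted threshold, and 3 had an unadjusted p under 0.05, against 32.4% of all tested genes. DESeq2 called 1 higher and 1 lower, against 14.8% and 12.5% of all genes, and limma on log2(FPKM + 0.1) 1 higher, against 6.09%. Cited2, which competes with HIF for the coactivators of the p300 family, had the highest log2 fold change, 1.63 ± 0.38 (SE; edgeR adjusted p 0.0515), with 16.0, 15.1 and 12.9 FPKM in sham and 24.7, 63.2 and 58.9 FPKM in ischemia. It lay wholly above sham and passed in 4 of 17 alternatives, without ischemia replicate 1 (edgeR adjusted p 0.0126), in DESeq2 (0.00116), in limma on log2(FPKM + 0.1) (0.0474) and at a mean FPKM of at least 5 (edgeR 0.0456). Cited4, a related cofactor, had the lowest, -2.0 ± 0.99 (SE; edgeR adjusted p 0.209), with 19.7, 43.3 and 15.8 FPKM in sham and 15.6, 0.994 and 4.98 FPKM in ischemia. It was -3.25 without ischemia replicate 1, -1.25 without sham replicate 2 and did not pass in any of 17 alternatives. The members of the ligase that works with Vhl were nearer to 0, with log2 fold changes of -0.07 for Elob, 0.06 for Eloc, 0.24 for Cul2 and 0.36 for Rbx1 (edgeR adjusted p 0.839, 0.865, 0.511 and 0.208). These 4 genes were named after their values were seen.

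**Figure D5:**
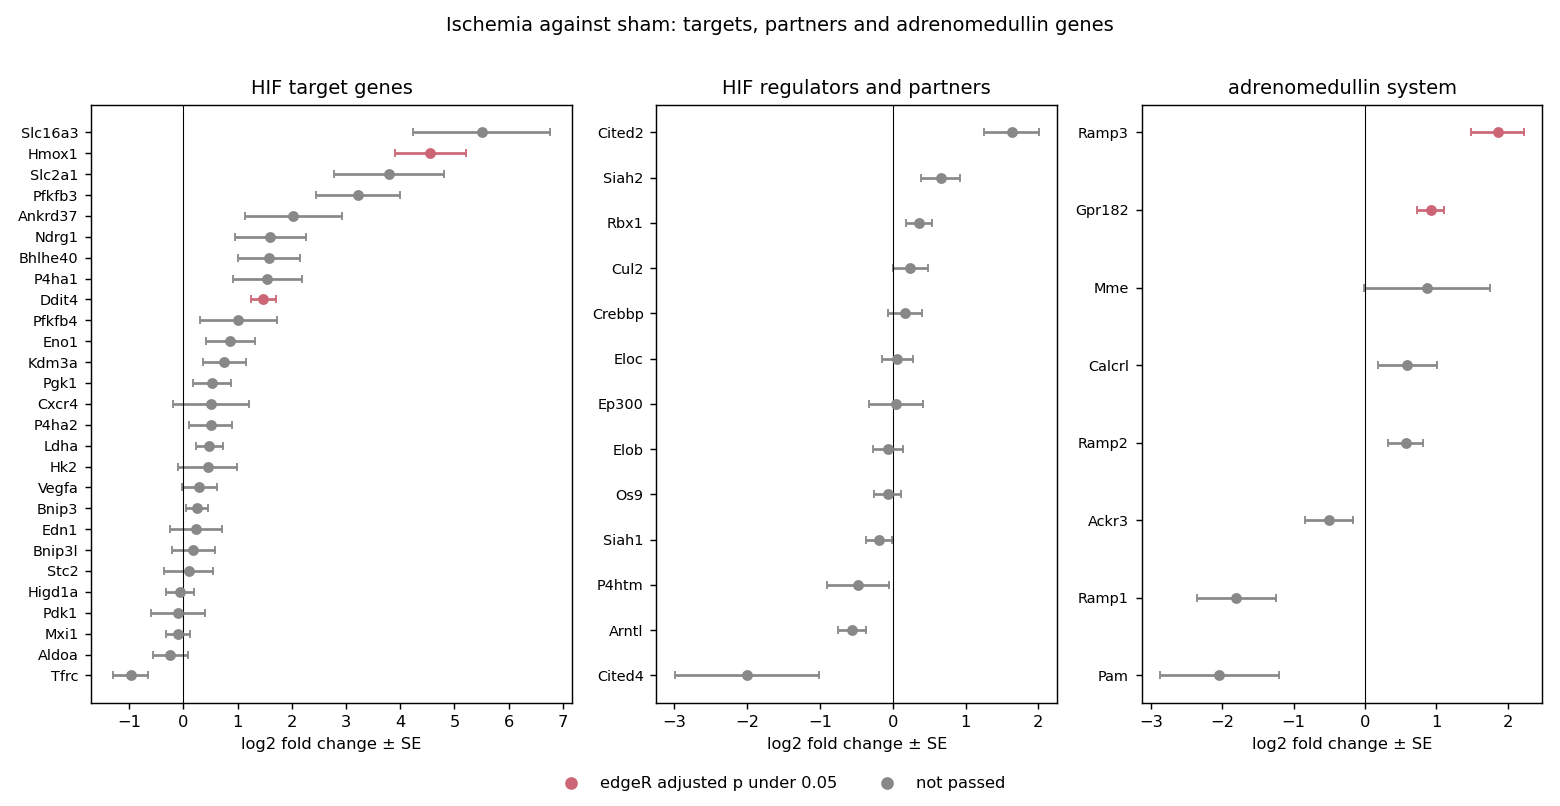
Log2 fold change of ischemia against sham with its SE for the tested genes of the target, partner and adrenomedullin lists (edgeR), with genes past the adjusted threshold in red. In red are 2 targets (Hmox1 and Ddit4), no partner and 2 adrenomedullin genes (Ramp3 and Gpr182).

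Ordered by mean FPKM in sham, the members ran from Egln1 (84.4), Egln3 (60.5), Epas1 (32.4) and Egln2 (28.5) through Adm (13.6), Hif1an (11), Vhl (9.38), Arnt (8.91) and Hif1a (8.31) to Hif3a (0.0155). Neighbours whose sample ranges did not overlap were Egln3 and Epas1, Egln2 and Adm, Hif1an and Vhl, and Hif1a and Hif3a. The other neighbours overlapped. Egln1 was nevertheless above Egln3 in FPKM in each of the 6 samples, and below it in each in counts. In ischemia Hif1a stood at rank 4 rather than 9, at 36.4 FPKM on average, beside Egln2 (36.7) and Epas1 (30.8), and its range overlapped both. That mean rested on ischemia replicate 2 (70.7 FPKM). In ischemia replicates 1 and 3 Hif1a (15.2 and 23.1 FPKM) was below both Egln2 (41.2 and 36.3 FPKM) and Epas1 (35.6 and 38.3 FPKM).

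Genes whose pattern over the 6 samples was most like that of a member were found by the root mean square difference of centred log2 CPM. For Hif1a they were Tmed5, Ptbp3 and Soat1, at 0.103, 0.13 and 0.131, against a root mean square deviation of 1.12 for Hif1a itself. For Epas1 they were Gramd2b, Tuba4a and AABR07025819 (0.0766, 0.086 and 0.109), and for Egln3 Tp53i11, Ralgapa2 and AABR07035539 (0.157, 0.164 and 0.178). For Adm they were Igfbp3, Casp4 and Pld1 (0.206, 0.265 and 0.293). The deviation of the gene itself was 0.491 for Epas1, 0.607 for Egln3 and 0.974 for Adm, so the differences are not on 1 scale. The samples share their libraries and groups, so likeness of this kind is a description only.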

How the data were processed

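Myocardial RNA of 3 sham and 3 ischemia samples was analysed from 1 table. The raw read counts per gene deposited by the authors were whole numbers, not normalized. The FPKM values deposited by the authors were scaled by gene length and library size, with genes without reads set to about 0.0001. Libraries were made with a stranded total RNA kit. STAR and HTSeq appear in the submitters' processing notes, without roles or versions. The genome build and annotation release are not given in the sources used here, so reads of near-identical or overlapping genes may have been split or lost.

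Testing was limited to the 13964 genes whose FPKM averaged 0.5 or more. It used edgeR's quasi-likelihood test on counts scaled by trimmed means of M-values, ischemia against sham with no covariate. Two-sided p-values were Benjamini-Hochberg adjusted over all of these genes and called at 0.05. SEs came from the F statistic. For single values an exact permutation test, two-sided, was used. DESeq2, limma on log2(FPKM + 0.1) and log2(FPKM + 1), other scalings, filters, a replicate block and sample removals were alternatives. The 5 marker lists in the plots, the mural markers and the target, partner and adrenomedullin lists, like the members, were chosen with earlier results of these data known. Genes named were all members and, from each of the last 3 lists, those past the threshold (at most 8) and the highest and lowest of the rest, unless stated otherwise. An item of the target list is not reported here and was left out of its counts. Rack1, listed on several rows, was left out, and Arnt2, Ca9, Epo and Adm2 fell under the filter. Pecam1, Ttn and Col1a2 were not matched. Promoter sequences came from RefSeq. The scripts were tested on simulated data. Versions were DESeq2 1.42.0, edgeR 4.0.16 and limma 3.58.1 under R 4.3.3, with figures from matplotlib 3.10.9 under Python 3.11.15.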

Additional observations from a re-analysis of the deposited data

How the results depend on the processing

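All alternatives were planned. Hif1a, Egln2 and Vhl stayed positive and Hif1an negative under all 17. Members past the adjusted threshold as higher moved from 0 to 1 with DESeq2, and ranged from 0 to 1 with a sample left out. Members called lower stayed at 0. Of all 13964 tested genes, 723 were called higher in the reported fit, 657 with limma on log2(FPKM + 1) and 509 with total-count scaling. Without a low-value filter 493 of 20541 were. Targets called higher (2 in the reported fit) were 6 with DESeq2, 4 at a mean FPKM of at least 5, 0 with sham replicate 2 as the only control and 0 to 6 with a sample left out. Targets called lower were 1 with DESeq2 and 0 to 1 with a sample left out. Partners called higher were 1 with DESeq2, 1 with limma on log2(FPKM + 0.1), 1 at a mean FPKM of at least 5 and 0 to 1 with a sample left out, and partners called lower were 1 with DESeq2. Adrenomedullin genes called higher (2) were 1 with limma at either pseudocount, 1 at a mean FPKM of at least 5, 0 with total-count scaling, 0 without a low-value filter, 0 with sham replicate 2 as the only control and 0 to 2 with a sample left out, and those called lower were 2 with DESeq2. Over all tested genes, 0 passed with sham replicate 2 as the only control and without sham replicate 1, 2 or 3 or ischemia replicate 3, 1495 passed as higher without ischemia replicate 1, and 725 of 8156 did at a mean FPKM of at least 5. The cause was not tested.

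Small log2 fold changes changed sign. Egln1 was 0.067 and 0.067 and Egln3 0.050 and 0.050 with limma at pseudocounts of 0.1 and 1, and they were 0.088 and 0.12 with total-count scaling. Arnt was -0.0070 at a mean FPKM of at least 5. With a sample left out, Epas1 ranged from -0.40 to 0.17, Arnt from -0.11 to 0.15, Egln1 from -0.31 to 0.35, Egln3 from -0.59 to 0.52 and Adm from -0.84 to 0.95. The difference in the Egln3 share ranged from -5.82 to 1.76 percentage points and in the log2 ratio of Egln3 to Egln1 from -0.20 to 0.16. The cause was not tested.

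With the replicate number as a block, 0 targets, 0 adrenomedullin genes and 0 of all 13964 genes passed in edgeR (3349 at an unadjusted p under 0.05), Hif1a was 1.77 (adjusted p 0.206) and Adm -0.0070. The numbers come from the titles, which name no pairing. Same-numbered samples had correlations of deviations of -0.0561, -0.094 and -0.196 for replicates 1, 2 and 3 (mean -0.115). The numbers were therefore not taken to pair the samples. The mean of the other pairs, 0.0553, is no separate comparison, because deviations from a group mean sum to 0 and tie it to the first. Depth was not a limit for the 9 tested members, with at least 627 counts per sample, but was for Hif3a.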
